A study of Mus musculus with 10 samples.

Results

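Mitochondria are renewed by biogenesis and reshaped by fusion and fission, and 10 genes that carry these processes were examined in the aged mouse cochlea after long-term nicotinamide riboside (NR), a precursor of NAD+. They were taken by their gene symbols: Ppargc1a, Ppargc1b, Nrf1 and Tfam for biogenesis, Mfn1, Mfn2 and Opa1 for fusion, and Dnm1l, Fis1 and Mff for fission. All 10 were found among the 54532 genes of the count tables, and all 10 were among the 18329 genes with enough reads to be tested. None of the 10 passed the main test (edgeR) of NR-treated against non-treated mice at an adjusted p of 0.05, where 0% of all tested genes passed. The median 95% interval around the log2 fold changes of the 10 was 0.27 wide, against 0.54 for all tested genes.

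RNA was sequenced from the cochlea of 12-month-old mtKeima mice, which carry a transgene for a pH-sensitive fluorescent protein targeted to mitochondria, on a mixed genetic background according to the methods of the study. The 5 NR mice had drunk water with 7 mg/ml NR for 10 months, and the 5 Veh mice had drunk regular water and carried the same transgene. The labels give each library as a separate replicate, so the p-values below measure the spread between these samples. The labels say female and the methods of the study say male. In all 10 libraries Xist had between 2 and 8 reads, whereas Ddx3y, a gene of the Y chromosome, had between 1235 and 1928, which goes against the label female in both groups alike.

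The total count per sample lay between 17060379 and 22931581 in NR and between 20004667 and 24419230 in Veh. Transcripts of the cochlea were present in every library: 12 genes of the stria vascularis and spiral ligament, of which Coch was the most abundant, summed to between 3943 and 7705 CPM (read counts scaled to a common library total), and 10 hair cell genes, led by Myo6, to between 300.0 and 681 CPM. RNA of the cell type markers was uneven between the samples. The marker lists were chosen with earlier results of these data known, so the counts that follow are a description and no test of cellular makeup. Of the genes tested in each list at an unadjusted p of 0.05, 11 of 18 skeletal muscle genes, 8 of 11 adipocyte genes, 4 of 12 neuron genes, 2 of 10 bone genes, 1 of 6 brown adipocyte genes and 1 of 9 neutrophil genes were higher in NR. At the same threshold 7 of 10 supporting cell and tectorial membrane genes, 5 of 12 stria and ligament genes, 1 of 10 hair cell genes, 1 of 9 Schwann cell genes and 1 of 9 B lymphocyte genes were lower, and 0 of 7 erythroid genes passed. Over all tested genes the share was 4.83% higher and 4.88% lower, so the lists with a single gene called are not set apart by these counts. The summed level of the muscle genes ranged from 81.4 to 1214 CPM in NR and from 85.9 to 181 CPM in Veh, with NR_3 and NR_5 far above the rest. No marker of these lists was at 0 in every sample. In bulk tissue, fewer cells of a type and less RNA per cell cannot be told apart.

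PGC-1alpha and PGC-1beta, encoded by Ppargc1a and Ppargc1b, are coactivators that switch on nuclear genes for mitochondrial proteins through transcription factors such as NRF1 and the estrogen-related receptors. NRF1 in turn drives genes such as Tfam, whose product packages mitochondrial DNA and starts its transcription. MFN1 and MFN2 join the outer membranes of neighbouring mitochondria and OPA1 joins the inner membranes, whereas DRP1, encoded by Dnm1l, is a dynamin-related GTPase that is recruited by outer membrane proteins such as MFF and FIS1 to divide them. The cochlea, with its ion-pumping stria vascularis, hair cells and spiral ganglion neurons, has a high demand for mitochondrial energy.

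Across all 18329 genes tested with the quasi-likelihood test of edgeR, 0 (0%) were called at a Benjamini-Hochberg adjusted p of 0.05, and the smallest adjusted p of any gene was 0.224. At an unadjusted p of 0.05, 1780 genes (9.71%) were called, 886 of them higher in NR (4.83%) and 894 lower (4.88%). Against these shares, 0 of the 10 genes of mitochondrial biogenesis and dynamics were called at either threshold. With DESeq2 also, 0 of the 10 were called, beside 6.58% of all genes at its unadjusted p and 0.52% at its adjusted p. The NR and Veh samples did not overlap in 302 of the tested genes (1.65%) and overlapped in each of the 10. By sign only, 3 of the 10 were higher in NR and 7 lower, and their median log2 fold change was -0.03 (median of all tested genes -0.01). The lowest p among the 10 was 0.16, for Mfn2, with an edgeR adjusted p of 0.646.

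**Figure D1:**
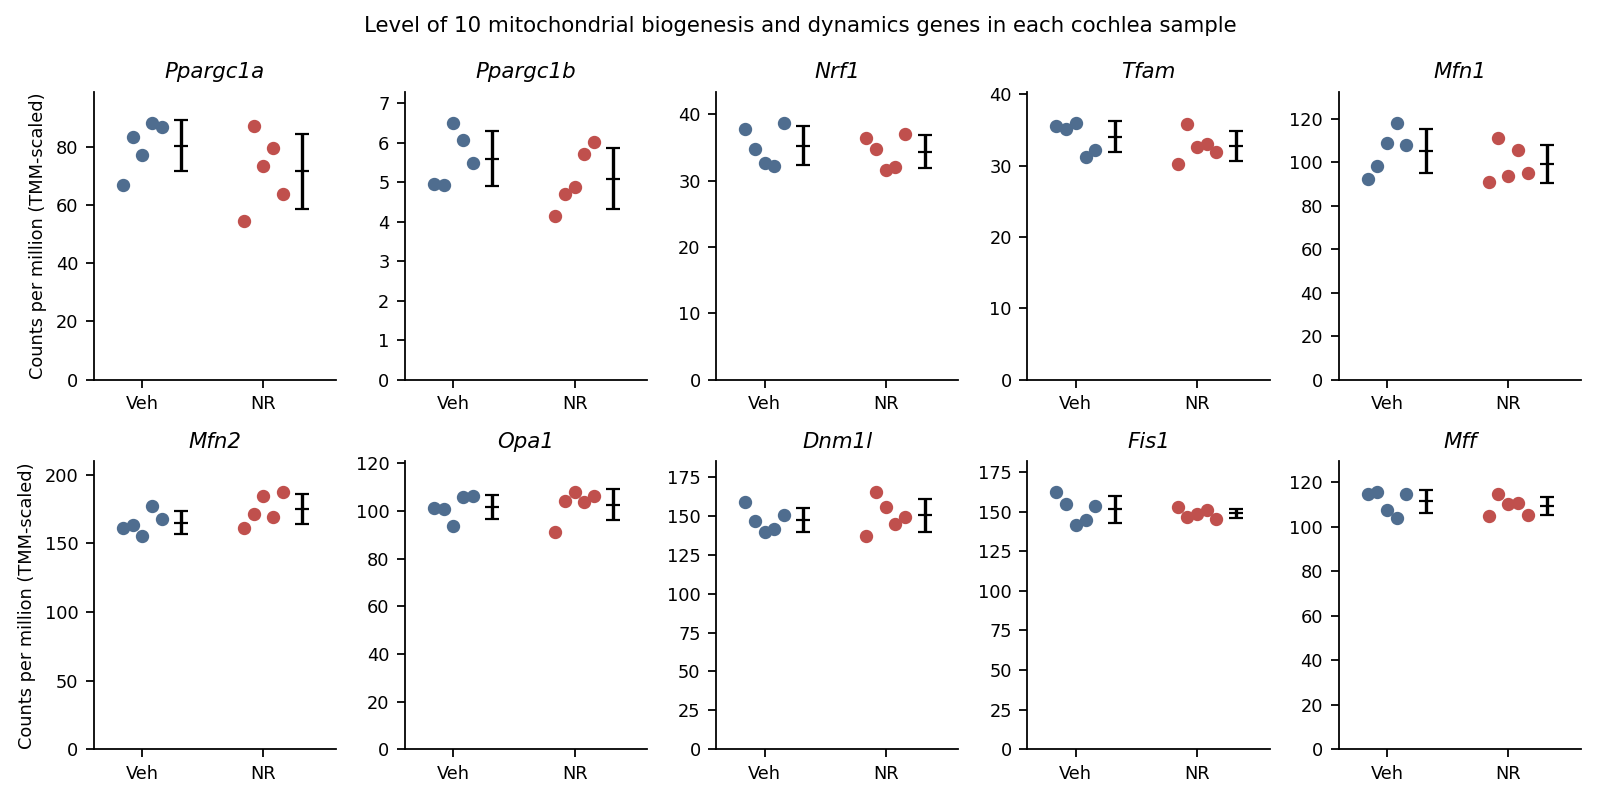
Level of each of the 10 genes in CPM (y axis, from 0, scaled per gene) in the 5 Veh and 5 NR samples. Points are samples in the order of their replicate numbers from left to right, and the bars beside them are mean ± SD. The groups overlap in every panel, and Ppargc1a has its lowest point, 54.5 CPM, in NR_1.

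Ppargc1a (ENSMUSG00000029167) lies on the minus strand of chromosome 5 at 51454250 to 51567726 in mm10. Its level was 54.5, 87.1, 73.3, 79.4 and 63.7 CPM in NR_1 to NR_5, and 66.7, 83.2, 77.0, 88.3 and 86.8 CPM in Veh_1 to Veh_5. Two-sided testing with edgeR gave a log2 fold change of -0.17 ± 0.12 (SE) between group means of 71.6 ± 12.8 CPM (SD, n = 5) in NR and 80.4 ± 8.80 CPM (SD, n = 5) in Veh (unadjusted p = 0.202, adjusted p = 0.675). The lowest samples were NR_1, NR_5 and Veh_1, and both NR samples among them lay under every Veh sample. The 95% confidence interval ran from a level 26.2% lower to 7.44% higher in NR. The log2 fold change of Ppargc1a was -0.08 without NR_1 and ranged from -0.24 to -0.08 as each sample was left out. Among the 10 genes this coactivator had the widest range within a group on the log2 scale.

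Ppargc1b (ENSMUSG00000033871) is on the minus strand of chromosome 18 at 61298136 to 61400431. It was the least abundant of the 10, with between 86 and 161 reads per sample. It stood at 4.14, 4.70, 4.89, 5.72 and 6.02 CPM in NR_1 to NR_5, against 4.96, 4.94, 6.51, 6.08 and 5.48 CPM in Veh_1 to Veh_5. NR_1, NR_2 and NR_3 were under all Veh samples, and the other two NR samples lay within the Veh range. The log2 fold change was -0.14 ± 0.14 (SE; edgeR adjusted p = 0.759). It was -0.06 without NR_1 or without Veh_3, and -0.0054 without Veh_3 and Veh_4. At this low count the counting error alone was 9.26% of the level, beside a spread between samples of 15.0% in NR and 12.4% in Veh, and a change between 26.6% lower and 12.7% higher was within the interval.

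The transcription factor gene Nrf1 (ENSMUSG00000058440) is on the plus strand of chromosome 6 at 30047988 to 30153458, and it is not the antioxidant regulator NRF2. It was steady, at 36.4, 34.8, 31.6, 32.1 and 37.0 CPM in NR_1 to NR_5 and at 37.8, 34.8, 32.7, 32.2 and 38.8 CPM in Veh_1 to Veh_5. The log2 fold change was -0.04 ± 0.07 (SE; edgeR adjusted p = 0.882). Tfam (ENSMUSG00000003923), on the minus strand of chromosome 10 at 71225464 to 71238280, had 30.3, 35.9, 32.6, 33.0 and 31.9 CPM in NR_1 to NR_5 and 35.5, 35.1, 36.0, 31.2 and 32.2 CPM in Veh_1 to Veh_5. The samples of both groups were mixed along the range, and the log2 fold change of Tfam was -0.06 ± 0.06 (SE; edgeR adjusted p = 0.786). For both genes the interval reached about as far down, to 12.9% lower for Nrf1 and 12.8% lower for Tfam, and ended at 9.03% and 6.23% higher. All 4 biogenesis genes were lower in NR by sign, and none by the test.

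None of the 3 fusion genes passed the test. Mfn1 (ENSMUSG00000027668), on the plus strand of chromosome 3 at 32529465 to 32579239, stood at 91.1, 111, 93.6, 105 and 94.9 CPM in NR_1 to NR_5 and at 92.5, 98.1, 109, 118 and 108 CPM in Veh_1 to Veh_5. The highest sample was Veh_4 and the lowest NR_1, with a log2 fold change of -0.08 ± 0.08 (SE; edgeR adjusted p = 0.737). Mfn2 (ENSMUSG00000029020), on the minus strand of chromosome 4 at 147873599 to 147904704, stood at 161, 171, 185, 169 and 187 CPM in NR_1 to NR_5 and at 161, 163, 155, 177 and 168 CPM in Veh_1 to Veh_5. NR_3 and NR_5 lay above every Veh sample, and the group means were 175 ± 11.0 CPM (SD, n = 5) in NR and 165 ± 8.29 CPM (SD, n = 5) in Veh. Mfn2 had the largest positive log2 fold change of the 10, 0.08 ± 0.06 (SE), which did not pass, and its interval ran from 2.64% lower to 15.3% higher. Without NR_1 the log2 fold change of Mfn2 was 0.12 with an unadjusted edgeR p of 0.048 and an adjusted p of 0.707. NR_3 and NR_5 were also the samples with the most skeletal muscle RNA, and without them the log2 fold change of Mfn2 was 0.03 (edgeR unadjusted p = 0.579). As they were the highest samples for Mfn2 itself, leaving them out lowers its fold change by construction. The part of muscle in the level of Mfn2 was not tested.

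Opa1 (ENSMUSG00000038084) is on the plus strand of chromosome 16 at 29579334 to 29654884. Its level was 91.2, 104, 108, 104 and 106 CPM in NR_1 to NR_5 and 101, 101, 93.8, 106 and 106 CPM in Veh_1 to Veh_5. NR_1 stood below the other 4 NR samples, which lay between 104 and 108 CPM, and the log2 fold change was 0.02 ± 0.06 (SE; edgeR adjusted p = 0.94). A change beyond 7.16% lower or 10.1% higher lay outside the interval of Opa1.

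Among the fission genes, Dnm1l (ENSMUSG00000022789), on the minus strand of chromosome 16 at 16312230 to 16358959, stood at 137, 165, 155, 145 and 150 CPM in NR_1 to NR_5 and at 159, 147, 140, 141 and 151 CPM in Veh_1 to Veh_5. NR held both the highest and the lowest sample, and the log2 fold change was 0.03 ± 0.06 (SE; edgeR adjusted p = 0.886). Fis1 (ENSMUSG00000019054) is on the plus strand of chromosome 5 at 136953275 to 136966234. It had 153, 147, 148, 151 and 145 CPM in NR_1 to NR_5, all inside the range of Veh_1 to Veh_5, which had 162, 155, 142, 145 and 153 CPM. The spread of Fis1 was 2.04% of its mean within NR and 5.44% within Veh, beside a counting error of 1.75%. The log2 fold change of Fis1 was -0.02 ± 0.05 (SE; edgeR adjusted p = 0.877).

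Mff (ENSMUSG00000026150), on the plus strand of chromosome 1 at 82724890 to 82752394, stood at 105, 115, 110, 111 and 106 CPM in NR_1 to NR_5 and at 115, 116, 108, 104 and 115 CPM in Veh_1 to Veh_5. All NR values lay inside the Veh range, and the log2 fold change was -0.03 ± 0.05 (SE; edgeR adjusted p = 0.859). In the GENCODE M21 annotation, 8 of the 10 genes shared no exonic base with another gene. Dnm1l shared 243 exonic bases (4.67%) with Gm49521 and Mff shared 195 (2.00%) with C430014B12Rik, both on the opposite strand, from which reads could not be told apart if strand was ignored in the counting.

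**Figure D2:**
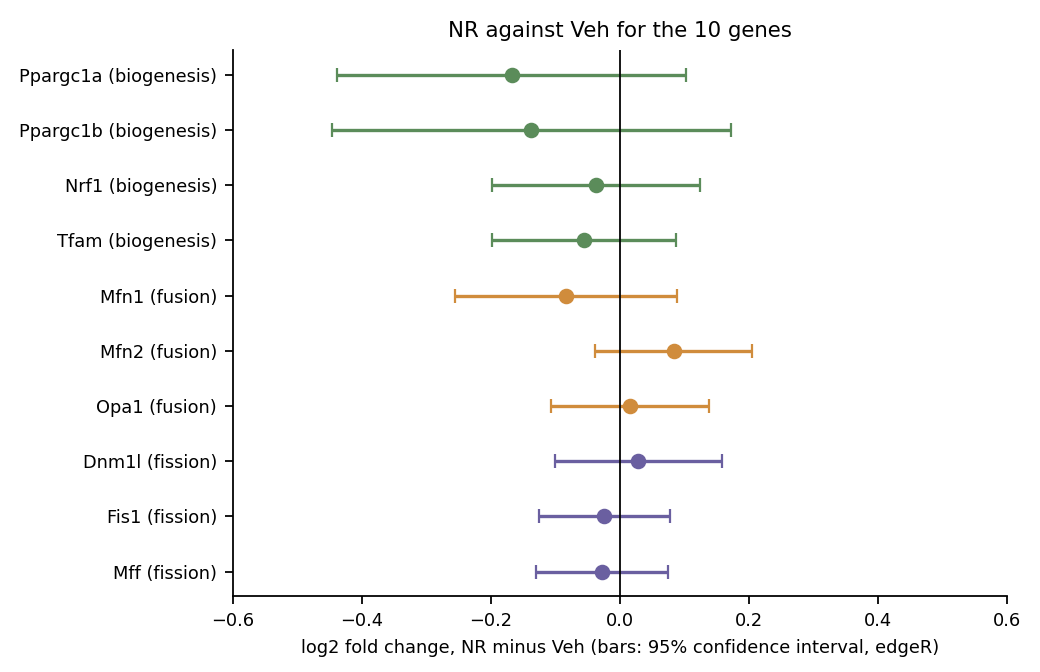
The log2 fold change of NR minus Veh (x axis) for each of the 10 genes (y axis, with role), with points for the edgeR estimate and bars for its 95% confidence interval. Every bar crosses 0, and the bars of Ppargc1a and Ppargc1b are the widest, reaching -0.44 and -0.45.

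How large a change could have been missed differed among the 10. All intervals included 0 and their bounds lay between -0.45 and 0.21 on the log2 scale. For 7 of the 10 the whole interval lay within 0.25 of 0, the exceptions being Ppargc1a, Ppargc1b and Mfn1. The median size of the log2 fold change, without its sign, was 0.05 for the 10 genes and 0.11 for all tested genes. The biological coefficient of variation, the spread between samples beyond counting, was under the median of all tested genes (0.149) for 9 of the 10 and 0.168 for Ppargc1b. In abundance, 9 of the 10 were above the median of tested genes, and Ppargc1b was at the 27.9th percentile.

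Levels of different genes were compared per exonic length, as RPKM, the CPM of a gene divided by its length in kilobases, over all 10 samples. Fis1, which encodes a short outer membrane protein, was the highest at 87.6 ± 3.50 RPKM (SD, n = 10). Mfn2 followed at 32.7 ± 2.03 RPKM and Dnm1l at 28.6 ± 1.72 RPKM. Both stood above Mfn1 at 16.7 ± 1.54 RPKM and Opa1 at 13.0 ± 0.705 RPKM in every sample. Ppargc1a at 11.5 ± 1.72 RPKM and Mff at 11.3 ± 0.466 RPKM could not be ordered, since Ppargc1a was the higher in 6 of 10 samples. Tfam at 7.52 ± 0.473 RPKM, Nrf1 at 3.39 ± 0.252 RPKM and Ppargc1b at 1.34 ± 0.185 RPKM closed the order. All other neighbours kept their order in 10 of 10 samples, so the genes of the fusion and fission machinery other than Mff stood above those of the biogenesis regulators per length. The lengths are those of all exons of a gene joined, so a gene with many alternative exons, such as Nrf1 with 20 annotated transcripts and 10282 bases, is given a lower RPKM than its main transcript alone would have.

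**Figure D3:**
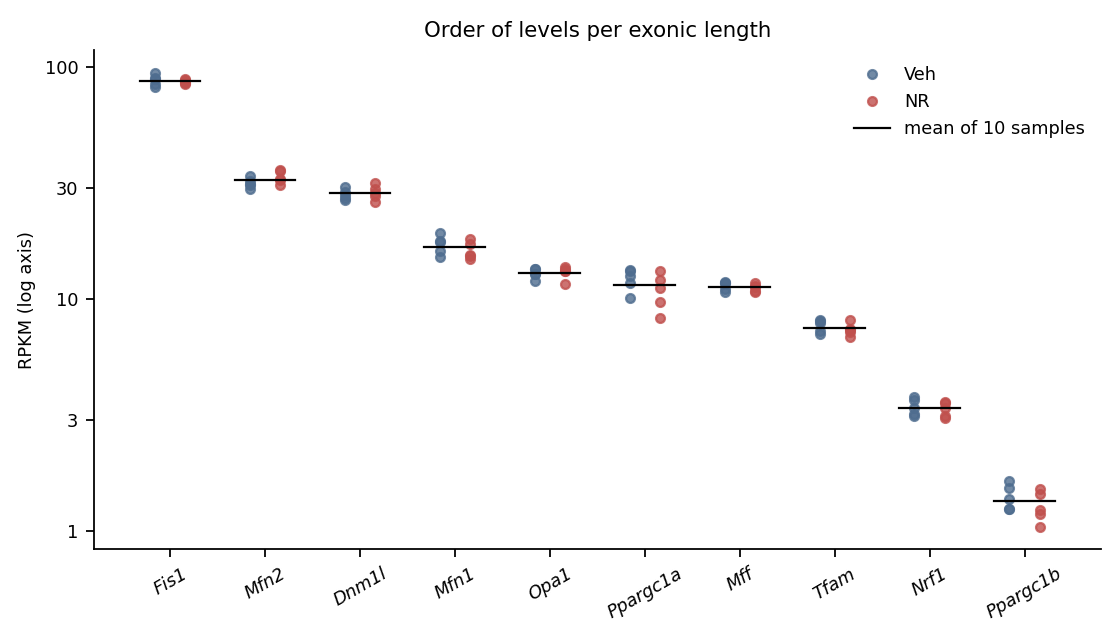
RPKM (y axis, log scale) of the 10 genes ordered by their mean, with a point per sample, Veh on the left and NR on the right of each gene, and a line at the mean of all 10 samples. Fis1 stands highest at 87.6 RPKM and Ppargc1b lowest at 1.34, and the points of Ppargc1a span those of Mff.

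Ratios between paired members were described without a test. Mfn2 exceeded Mfn1 in every sample, by 2.08, 1.81, 2.32, 1.89 and 2.32 times in RPKM in NR_1 to NR_5 and by 2.05, 1.96, 1.68, 1.76 and 1.83 times in Veh_1 to Veh_5. NR_1, NR_3 and NR_5 lay above all Veh samples, and the means were 2.09 ± 0.239 (SD, n = 5) and 1.85 ± 0.149 (SD, n = 5). The ratio of Opa1 to Dnm1l, of inner membrane fusion to fission, was 0.452 ± 0.0234 (SD, n = 5) in NR and 0.456 ± 0.0272 (SD, n = 5) in Veh. Fis1 exceeded Mff by 7.77 ± 0.362 times in NR and by 7.74 ± 0.241 times in Veh, and Ppargc1a exceeded Ppargc1b by 8.61 ± 1.76 and 8.77 ± 1.20 times. In every pair the group means differed by less than the SD within NR. In the last 3 pairs they also differed by less than the SD within Veh.

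Letters of regulators of nuclear mitochondrial genes were searched for near the start sites of the genes. Bases are printed where NRF1 or ETS letters lay before a start site. The windows held 250 bases before and 50 after each start site, from RefSeq on GRCm38.p6, and 9 of the 10 genes had 15 windows. Ppargc1b had no entry. The searched letters, on both strands, were GCGCANGCG for NRF1, CCGGAAG for the ETS family that includes GABPA, AANATGGC for YY1 and TNAAGGTCA for estrogen-related receptors. Their shares among all 32851 windows were 6.25%, 8.86%, 6.05% and 1.28%. The NRF1 letters were found in 1 gene, Opa1, the ETS letters in 4 genes (Tfam, Mfn1, Fis1 and Dnm1l), the YY1 letters in Mfn1 and Mff, and the estrogen-related receptor letters in none. Counted in windows, as the shares are, these were 1, 5, 3 and 0 of the 15. For YY1, overlapping windows of Mff held the same site, which was counted in each. For the NRF1 and ETS letters, the 30 bases around each match that lay before the start site are shown with the matched letters in capitals, 5′ to 3′ on the strand of the gene:
Tfam, chr10:71238073-71238102, minus strand, ETS letters: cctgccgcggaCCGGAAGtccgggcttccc
Mfn1, chr3:32529427-32529456, plus strand, ETS letters: gatccgaagcgCCGGAAGtagccgccccta
Fis1, chr5:136953246-136953275, plus strand, ETS letters: ggaggcaccacCCGGAAGttcaggcttccc
Opa1, chr16:29579265-29579294, plus strand, NRF1 letters: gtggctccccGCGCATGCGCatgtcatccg
The match in Opa1 reads the same on both strands, and it began 59 bases before the start site. The matches began 47 bases before it in Tfam, 44 in Mfn1 and 18 in Fis1. In Tfam the 30 bases lie within the first exon of a longer GENCODE transcript. A match describes letters only, and these 4 genes had log2 fold changes between -0.08 (Mfn1) and 0.02 (Opa1).

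The 10 genes were next compared with each other over the 10 samples, as log2 CPM with the mean of each group taken off, over all 45 pairs. Exact permutation within groups, two-sided, gave each p, and Benjamini-Hochberg adjustment was over the 45 pairs. The closest pair was Mfn2 and Opa1, with a Pearson r of 0.85 (exact permutation p = 0.000972, adjusted 0.0438) and a Spearman rho of 0.82 (p = 0.00771, adjusted 0.197), and with an r of 0.90 when the 2 samples farthest from the median were left out. It was the only pair to pass after adjustment of r, and none passed for rho. NR_1 and Veh_3 were low for both genes, and NR_3 and NR_5 were high for both. Ppargc1a and Mfn1 had an r of 0.79 (adjusted exact permutation p = 0.183; 0.67 without the 2 farthest samples) and Dnm1l and Mff, the GTPase and its receptor, an r of 0.74 (adjusted exact permutation p = 0.183; 0.63 without them), neither of which passed. The lowest values were those of Ppargc1b and Fis1 (r = -0.71) and of Mfn1 and Fis1 (r = -0.64), which did not pass either. Nrf1 and Tfam, a transcription factor and its known target, had an r of -0.12, and the mitofusins Mfn1 and Mfn2 one of 0.16. The median r over the 45 pairs was 0.26, and 26 were above 0. All pairs share the same 10 libraries.

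The levels of the 10 genes were also set beside the marker lists, since marker RNA was uneven between the samples. Over 120 pairs of a gene and 1 of the 12 marker lists, measured as the mean log2 CPM of the list and centred in the same way, 16 had an unadjusted exact permutation p under 0.05 and 1 passed after adjustment over the 120. That pair was Mfn1 and the stria and ligament list, with an r of 0.89 (exact permutation p = 0.000347, adjusted 0.0417), a rho of 0.94 (p = 0.000625, adjusted 0.075) and an r of 0.84 without the 2 farthest samples. Mfn1 and this list were both highest in Veh_4 and both lowest in NR_1. Mfn1 also had an r of 0.84 with the supporting cell list and of -0.82 with the neuron list, and Fis1 had the opposite signs, -0.79 and 0.78, none of which passed after adjustment. The rho of Fis1 with the neuron list was lower, 0.55. Pairs of similar r included Mfn1 with the B lymphocyte list (-0.80) and Dnm1l (0.80) and Mff (0.78) with the adipocyte list, which did not pass either. With Veh_3 and Veh_4 left out, the samples with the most supporting cell RNA, the log2 fold change of Mfn1 was 0.00 (edgeR unadjusted p = 0.994). Veh_4 (118 CPM) and Veh_3 (109 CPM) were also the highest Veh samples for Mfn1 itself, so leaving them out raises its fold change by construction. The part of these cells in the level of Mfn1 was not tested.

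Ppargc1a had an r of -0.85 with the bone list (adjusted exact permutation p = 0.175; -0.74 without the 2 farthest samples). NR_1, NR_5 and Veh_1, where Ppargc1a was lowest, had the highest bone marker levels of the 10 samples, between 5.73 and 6.16 on the log2 CPM scale. The part of bone in the level of Ppargc1a was not tested. Of 16539 genes with a mean of at least 1 CPM, the 3 most like Ppargc1a over the 10 centred samples were Atp6v1d (r = 0.96, rho = 0.99), a subunit of the vacuolar proton pump, Grin2c (r = 0.95, rho = 0.79), a subunit of NMDA-type glutamate receptors, and Kpna6 (r = 0.95, rho = 0.79), an importin. They were picked as the highest of that many genes and carry no p. None of the 3 was called between NR and Veh at an unadjusted p of 0.05.

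**Figure D4:**
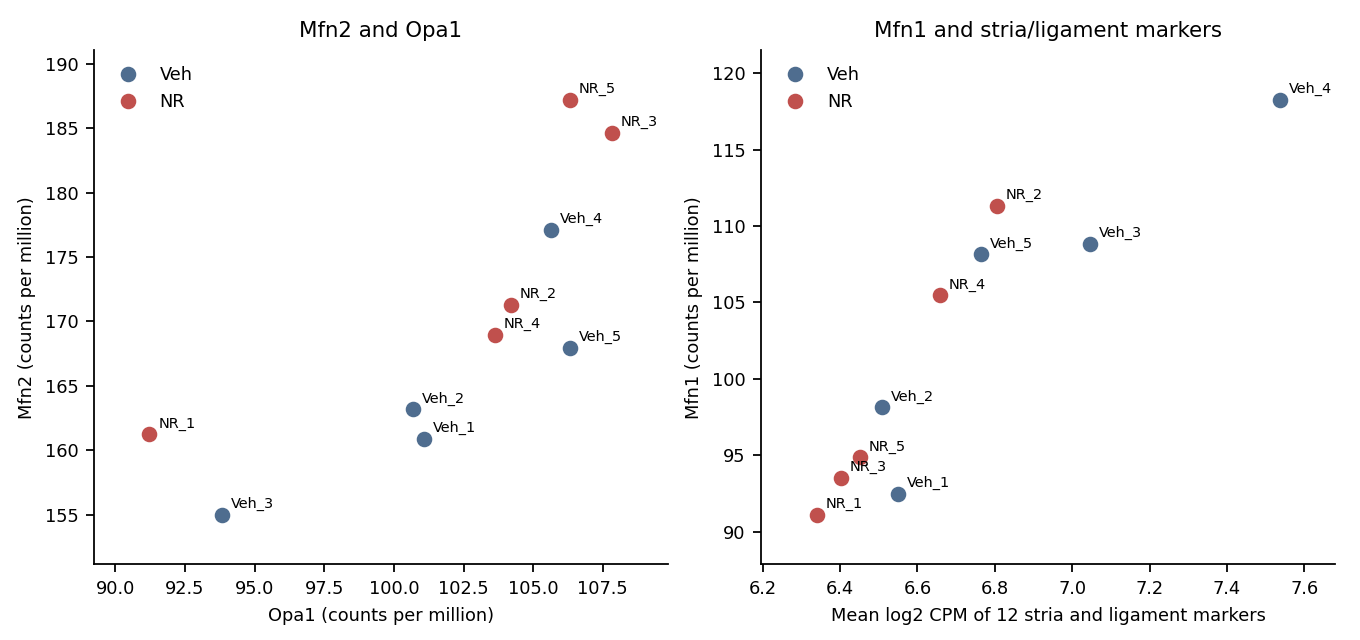
Left, Mfn2 against Opa1, both in CPM, and right, Mfn1 in CPM against the mean log2 CPM of 12 stria and ligament markers. A point is a sample, coloured by group. Mfn2 and Opa1 rise together from Veh_3 and NR_1 to NR_3 and NR_5, and Mfn1 rises with the marker level from NR_1 to Veh_4. The r, on group-centred log2 values, was 0.85 and 0.89.

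Another 82 genes of the same pathways were listed in 5 groups, 80 of them were found and 79 were tested. At an unadjusted edgeR p of 0.05, 6 were higher in NR and 4 lower, together 12.7% of those tested beside 9.71% of all genes, and 0 passed at an adjusted p of 0.05, where the lowest was 0.408. Their median log2 fold change was 0.00 (all tested genes -0.01). No change of a single gene named here passed the adjustment.

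In the group of transcription factors and coregulators of biogenesis, 1 of 10 was higher and 2 were lower, beside 4.83% and 4.88% of all tested genes. Perm1, a muscle regulator induced by PGC-1 and estrogen-related receptors, had 7.90, 8.37, 13.8, 10.2 and 12.8 CPM in NR_1 to NR_5 and 6.21, 7.14, 5.42, 7.58 and 7.57 CPM in Veh_1 to Veh_5. All 5 NR samples lay above all 5 Veh samples, with a log2 fold change of 0.64 ± 0.18 (SE; edgeR unadjusted p = 0.0037, adjusted p = 0.408). The highest 2 were NR_3 and NR_5, the samples with the most skeletal muscle RNA, and without them the log2 fold change was 0.39 (edgeR unadjusted p = 0.0333). Leaving out the highest NR samples lowers the fold change by construction, and the part of muscle in the level of Perm1 was not tested. Gabpb2, a subunit of the GABP transcription factor, was at 72.0 ± 5.14 CPM (SD, n = 5) in Veh and at 63.3 ± 3.47 CPM (SD, n = 5) in NR, a log2 fold change of -0.19 ± 0.06 (SE; edgeR unadjusted p = 0.0115, adjusted p = 0.436). Nrip1, which encodes the corepressor RIP140, was at 27.6 ± 3.85 CPM (SD, n = 5) in Veh and at 22.4 ± 1.61 CPM (SD, n = 5) in NR, a log2 fold change of -0.30 ± 0.10 (SE; edgeR unadjusted p = 0.0107, adjusted p = 0.436). In both genes 3 NR samples lay under all Veh samples. Esrra, which encodes a main partner of PGC-1alpha, had a log2 fold change of 0.00 (edgeR adjusted p = 0.996).

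Of 17 genes for transcription and replication of mitochondrial DNA, 1 (5.88%) was called, beside 9.71% of all tested genes. This gene, Mterf4, was higher in NR by 0.18 ± 0.07 (SE) on the log2 scale (edgeR unadjusted p = 0.0338, adjusted p = 0.483). It encodes a factor of mitochondrial ribosome assembly, and 4 NR samples lay above all Veh samples. Of the 13 proteins encoded in mitochondrial DNA itself, 12 had transcripts higher in NR by sign (47.1% of all tested genes were) and 1 (7.69%), mt-Co2, passed the unadjusted threshold (edgeR adjusted p = 0.476). The 13 transcripts come from the same libraries, so the signs are not independent of each other. Their summed level did not separate the groups, since NR_1 (26125 CPM) and NR_5 (26216 CPM) lay under the Veh range of 27049 to 28990 CPM and NR_2 (38050 CPM) far above it. Another 18 genes were for fusion and the shaping of the inner membrane, among them the proteases that cleave OPA1 and the MICOS scaffold. Of these, 0 were called, beside 9.71% of all tested genes, and their median log2 fold change was 0.03.

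Among 17 adaptors and regulators of fission, 2 (11.8%) were called, beside 9.71% of all tested genes. Gdap1, an outer membrane protein mutated in a hereditary neuropathy, was higher by 0.21 ± 0.09 (SE; edgeR unadjusted p = 0.0377, adjusted p = 0.49). Spire1, an actin nucleator with a form at mitochondria, had a log2 fold change of -0.31 ± 0.11 (SE; edgeR unadjusted p = 0.0139, adjusted p = 0.445). Among 17 genes for transport of mitochondria, 3 were higher and 1 lower, beside 4.83% and 4.88% of all tested genes. The higher ones were the kinesin heavy chains of neurons Kif5c (log2 fold change 0.24, edgeR adjusted p = 0.488) and Kif5a (0.22, adjusted p = 0.49), and Armcx2 (0.18, adjusted p = 0.476). Of 18 alternatives, Kif5c lost its unadjusted call in 7, and Kif5a and Armcx2 in 6 each, among them the fit without NR_3 and NR_5. For Kif5a and Kif5c these were the highest samples, so leaving them out lowers the fold changes of both genes by construction. The adaptor Trak2, which links mitochondria to these motors, was at 189 ± 24.8 CPM (SD, n = 5) in NR and at 235 ± 28.4 CPM (SD, n = 5) in Veh, and 4 NR samples lay under all Veh samples, with a log2 fold change of -0.31 ± 0.11 (SE; edgeR unadjusted p = 0.0126, adjusted p = 0.44). Neuron markers also moved between the groups: 4 of 12 were called higher, the summed level was 6786 to 7565 CPM in NR and 5344 to 8085 CPM in Veh, and their part in the kinesin levels was not tested. With NR_3 and NR_5 left out, 4 of the 79 genes were called instead of 10, and 6 were called without NR_3 alone or without Veh_3 alone. Calls over all genes also fell in these fits, from 1780 to 843 without NR_3 and NR_5, to 1153 without NR_3 and to 1364 without Veh_3.

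**Figure D5:**
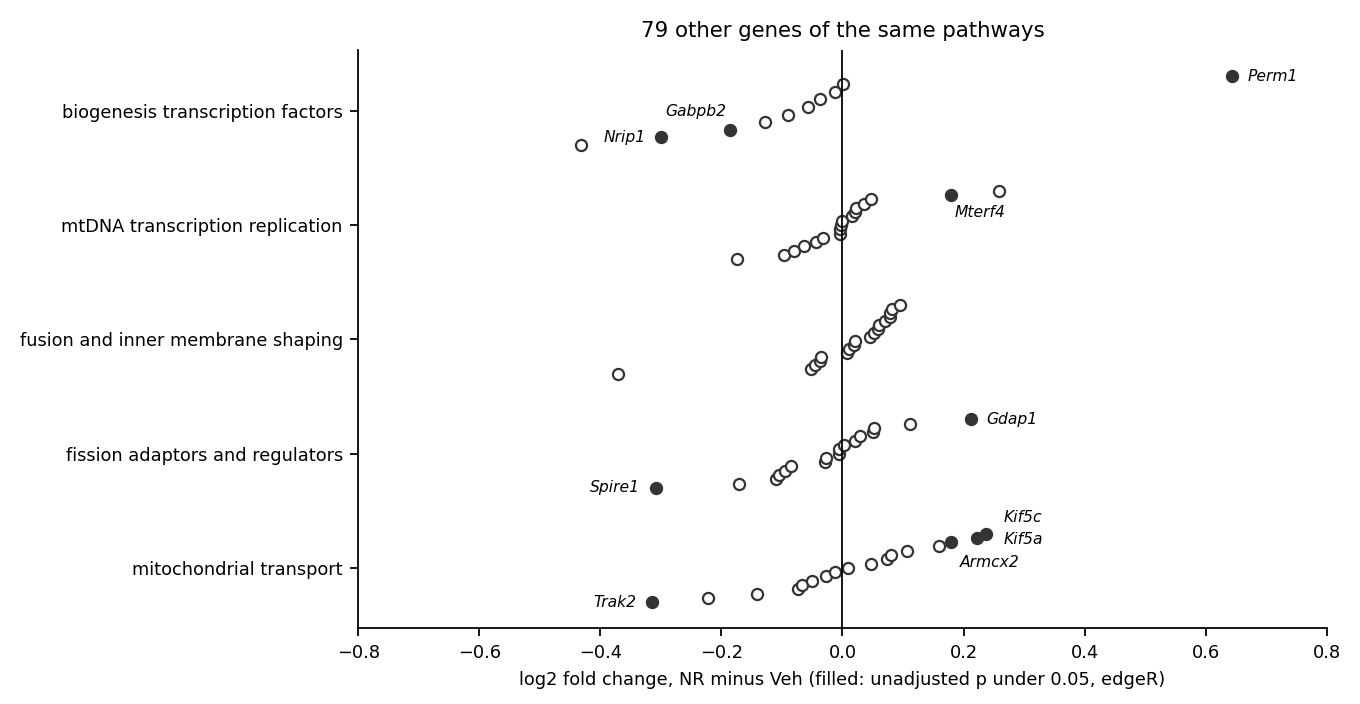
The log2 fold change of NR minus Veh (x axis) of 79 other genes in 5 groups of the same pathways (y axis), with a point per gene, spread vertically by rank within its group. Filled points had an unadjusted edgeR p under 0.05. They are 10 in number, Perm1 at 0.64 lies farthest from 0, and the group of fusion and inner membrane genes has 0 filled points.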

How the data were processed

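Total RNA of the cochlea was sequenced as poly(A) libraries by Novogene. The authors deposited raw read counts for each gene, 1 file a sample, without normalization. Per the labels and the methods of the study, reads were cleaned with fastp, aligned to mm10 with STAR version 2.6.1d and counted with featureCounts version 1.5.0. The annotation release is not given in the sources used here; the coordinates of all 10 genes matched GENCODE M21. Strand handling beyond the default mode of the counter was not stated.

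Counts were scaled with TMM, filtered with filterByExpr and tested NR against Veh, with no covariate, by the quasi-likelihood test of edgeR version 4.0.16 in R version 4.3.3, with Benjamini-Hochberg adjustment over all 18329 tested genes; intervals are 95%. The study used DESeq2; here DESeq2 version 1.42.0 was an alternative. Total counts were 17060379 to 24419230 a sample. No 2 samples agreed within the sampling noise of counts. Correlations used log2 CPM (prior count 2) centred per group, with all 14400 permutations within groups, and their p-values were added to a comparison first planned as a description. RPKM used the gene lengths in the files. The test was checked on simulated data. Python version 3.11.15 and matplotlib were used for annotation, motifs and figures.

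Named were all 10 genes, from each related list the genes at an unadjusted p of 0.05 (up to 4 per direction), and the 3 genes most like Ppargc1a. Esrra and mt-Co2 were named after their values were seen. The members and all gene lists were chosen with earlier results of these data known. Alternatives were DESeq2, its size factors, library totals, no filter, a robust dispersion, a block for the replicate number, TPM, and leaving out each sample; leaving out NR_3 and NR_5, or Veh_3 and Veh_4, was chosen after seeing the data.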

Additional observations from a re-analysis of the deposited data

Results flagged for a closer look

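The level of Opa1 in NR_1 was 91.2 CPM, whereas the other 4 NR samples lay between 104 and 108 CPM. The gap to its nearest neighbour was 0.747 of the range of the NR group, above the 95% critical value of Dixon's test for 5 samples (0.71). It was the only one among 40 sets of 5 values examined, and chance flags about 1 in 20. Without NR_1 the log2 fold change of Opa1 was 0.06, with an unadjusted edgeR p of 0.196.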

How the results depend on the processing

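Of 180 fold changes of the 10 genes under 18 alternatives, 172 kept their sign and their side of an unadjusted p of 0.05. At an adjusted p, 0 of the 10 were called under every alternative. At the unadjusted p the count was 0 to 1 when each sample was left out (Mfn2 without NR_1, 0.12, edgeR adjusted p = 0.707) and 0 otherwise. Signs turned, close to 0, for Nrf1 without NR_3 (0.0028; range over left-out samples -0.064 to 0.0028), Fis1 without Veh_1 (0.0077; range -0.035 to 0.0077), Fis1 with library totals only (0.0025), Fis1 (0.0011) and Opa1 (-0.014) without NR_3 and NR_5, and Mfn1 (0.00062) and Dnm1l (-0.0099) without Veh_3 and Veh_4; the cause was not tested. The related genes called, 10, were 6 to 13 with each sample left out and 4 without NR_3 and NR_5. Over all genes, 1780 calls at the unadjusted p became 843 without NR_3 and NR_5 and 1153 (without NR_3) to 2440 (without NR_2) with each sample left out, and 0 calls at the adjusted p became 102 with DESeq2 and 0 to 1 with each sample left out (1 without NR_2); the cause was not tested. Without a filter, 2480 genes were called at the unadjusted p of 33224 genes with a read.

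Perm1, Gabpb2 and Trak2 kept an unadjusted p under 0.05 in all 18 alternatives, Nrip1 and Spire1 lost it in 1, Kif5a and Armcx2 in 6, Kif5c in 7, and Mterf4 and Gdap1 lost it in 9. The replicate numbers did not pair the samples: the correlations of deviations of same-numbered samples ran from -0.22 to 0.17. For 1 of the 5 numbers the best correlation was with the partner of the same number. With the replicate block, 0 members were called at either p, and 7 related genes and 1655 genes in all at the unadjusted p. TPM gave the order of RPKM for all 10 genes. Depth limits Ppargc1b most, with 86 to 161 reads a sample.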
